A study of Strongylocentrotus purpuratus with 9 samples.

Results

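The eRNA peaks described here are those on the scaffold of the purple sea urchin genome that carries *Sp-kirrelL*, NW_022145615.1 in assembly v5.0. They were chosen by position alone, as the scaffold to which the study assigns its regulatory elements A to I. The study drew these elements partly from these same eRNA data. An overlap of peaks with elements is therefore not independent of the peaks. Intervals wider than 2000 bp were left out. This gave 858 peaks of the 17298 in the v5.0 list (4.96%), which lies on 107 scaffolds, and 3 of 861 intervals on the scaffold were dropped for their width. CAGE libraries, which record the 5′ ends of capped RNA, were made from total RNA of whole *Strongylocentrotus purpuratus* embryos without treatment or genetic change. The 9 stages ran from 0 to 48 hpf, every 6 h, with 1 library per stage from 2 embryo cultures. The deposited list merges all stages. Each peak has a start, an end, its v3.1 interval and a whole-number score that the study does not define, so the depth behind a peak is unknown. Without values per library there is no spread between replicates and no test, and the ranks below describe the list.

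Enhancers are stretches of DNA that raise the transcription of genes at a distance. When active they are usually transcribed themselves in both directions into short, unstable enhancer RNAs, so that a pair of divergent start sites marks an enhancer in use. *Sp-kirrelL* encodes an immunoglobulin-domain membrane protein of the primary mesenchyme cells (PMCs), the cells that build the larval skeleton, and is needed for their fusion. Elements A to G lie upstream of its coding sequence, and H and I downstream. In v5.0 the gene reads towards lower coordinates, so that its upstream side has the higher positions. In RNA from whole embryos, fewer cells using an enhancer and less RNA per cell cannot be told apart, and PMCs are a small part of the embryo.

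The scaffold carried eRNA peaks at 24.45 per Mb between its start and the end of its last kept peak at 35089776. By number of peaks it was the 4th of the 107 scaffolds. Among the 21 scaffolds with at least 400 peaks, here called chromosome-scale, its density was the 5th highest. The other 20 ranged from 10.46 to 28.89 per Mb, with a median of 18.55. The scaffold therefore lay in the upper part of the range but inside it.

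Divided into windows of 1 Mb from base 1, the scaffold had 35 full windows with 7 to 45 peaks. The mean was 24.5 ± 9.71 (SD over windows), and the median was 24 with quartiles of 17 and 31. The 825 full windows of the other scaffolds had a mean of 18.8 ± 10.3 (SD) and a median of 17, with quartiles of 11 and 24. The 2 sets of windows overlapped widely. Counts were uneven along the scaffold. The ratio of variance to mean was 3.85, against 2.38 to 7.24 on the other chromosome-scale scaffolds, and was the 12th highest of the 21.

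The densest window, 7000001–8000000, held 45 peaks, and 23000001–24000000 held 43. At the far end, the 5 windows from 30000001 to 35000000 held 25, 39, 36, 37 and 33 peaks, a mean of 34. The sparsest windows were 24000001–25000000 and 27000001–28000000, with 7 peaks each, followed by 29000001–30000000 with 8. The step from 43 peaks to 7 between neighbouring windows was the largest on the scaffold, where neighbours differed by a median of 8.5 peaks. Windows of 45 or more peaks were also found on 8 other scaffolds, 15 windows in all. Windows of 7 or fewer peaks numbered 91 of the 825 elsewhere.

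*Sp-kirrelL* lay in a well-populated window that was not among the densest. The window 1000001–2000000, which contains the coding sequence at 1958559–1960193 and all of elements A to I, held 32 peaks. It ranked 9th of the 35 windows of the scaffold, with 8 windows above it. Of all 860 full windows in the assembly, 758 (88.1%) had fewer peaks and 93 (10.8%) had more.

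**Figure D1:**
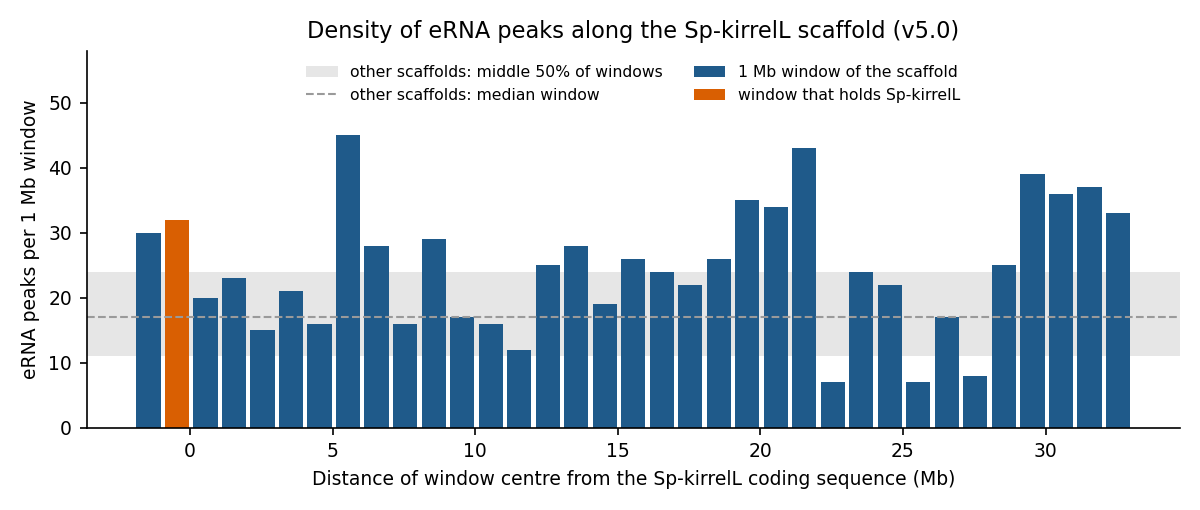
Number of eRNA peaks in each full 1 Mb window of the *Sp-kirrelL* scaffold, against the distance of the window's centre from the coding sequence. The window of *Sp-kirrelL* (orange) held 32 peaks and others (blue) 7 to 45, while the grey band marks the quartiles, 11 and 24, of the windows of all other scaffolds and the dashed line their median of 17.

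The rank of this window came mostly from peaks away from the gene. The coding sequence ends 39.8 kb before the end of the window, and the 6 bins of 100 kb at the other end, 1000001–1600000, held 23 of the 32 peaks. The bins at 1200001–1300000 and 1600001–1700000 were empty. The bins at 1700001–1800000 and 1800001–1900000 held 1 and 2 peaks. The last bin, 1900001–2000000, which holds the elements, had 6, as many as the fullest of the other bins, 1300001–1400000. With windows of 500 kb, the window of the gene held 12 peaks, more than 44.29% of the scaffold's windows, and its rank fell to the middle. With a 1 Mb window centred on the coding sequence the count was 28, more than 62.86% of them.

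Close to the gene the count was again above most of the scaffold. Within 65 kb of the coding sequence lay 6 peaks, in a stretch of 131635 bp. Of 266 tiles of that length along the scaffold, 218 (82.0%) had fewer than 6, 12 had 6 and 36 (13.5%) had more. The median tile held 2 peaks, the fullest held 21, and 44 (16.5%) held none. Over all scaffolds, 5974 of 6784 tiles (88.1%) had fewer than 6 and 1620 (23.9%) were empty. The 65-kb flank is the one used for the gene in the study's reporter BAC, whereas the tiles start at fixed positions.

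The 6 peaks, in order from the downstream to the upstream side, were as follows. The peak at 1904652–1904838 had a score of 2 and lay 53.72 kb downstream of the coding sequence. The peak of element I, at 1955081–1955411, had a score of 2 and lay 3.147 kb downstream. Upstream, the peaks of element E, at 1963177–1963507, and element C, at 1965794–1966010, had scores of 2 and lay 2.983 and 5.6 kb from the coding sequence. The peak at 1992114–1992519, 31.92 kb upstream, had a score of 6. Beside it, the peak at 1996590–1996959 had a score of 2 and lay 36.4 kb from the coding sequence. Among the members, 46.0% had a score of 2 and 73.4% a score of 6 or less.

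Of the 6 peaks, 5 (83.3%; 95% Wilson interval 43.6 to 97.0%) had the lowest score. Of the other 26 peaks of the window, 6 (23.1%) did, with a median score of 4 and a highest score of 206. The window as a whole had a median score of 4, tied for the 4th highest of the 35. Its share of lowest-score peaks, 34.4% (11 of 32; Wilson interval 20.4 to 51.7%), was one of the lower ones, 32nd from the top. The share over the whole scaffold, 46.0%, lay inside both intervals, which cover counting error only. With peaks of score 3 or more, the window kept 21 peaks and only the peak at 1992114–1992519 remained within 65 kb.

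The highest-scoring peaks of the window lay between 465.7 and 600.3 kb from the gene. The top one, at 1357684–1358281, had a score of 206 and a width of 598 bp and lay 600.3 kb downstream. It joins a pair of v3.1 intervals, on Scaffold535 and Scaffold6, with scores of 206 and 189. The next were 1381309–1381894 with a score of 32, 1492350–1492838 with 23, 1360106–1360751 with 18 and 1391655–1391927 with 14. The peak of score 18 also joins intervals of these same v3.1 scaffolds, with scores of 18 and 9. All 5 lay on the downstream side, at least 465.7 kb from the coding sequence. Only 39.8 kb of the window lies on the upstream side.

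A score of 20 is the 90th percentile of the list. On the downstream side the nearest peak to reach it was 1492350–1492838 (score 23), and on the upstream side it was 2114754–2115230 (score 22), 154.6 kb away. The 621.9 kb between them held 12 peaks, of which 7 had the lowest score and the highest score was 10. Stretches of this length were common, since 21 of the 88 stretches between such peaks on the scaffold were longer. Their median was 244.7 kb, and the longest was 2197 kb. Around the coding sequence, 4 neighbouring peaks in a row had the lowest score, over 61.4 kb. The scaffold had 26 runs of 4 or more, the longest with 7 peaks at 5383523–5610239.

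**Figure D2:**
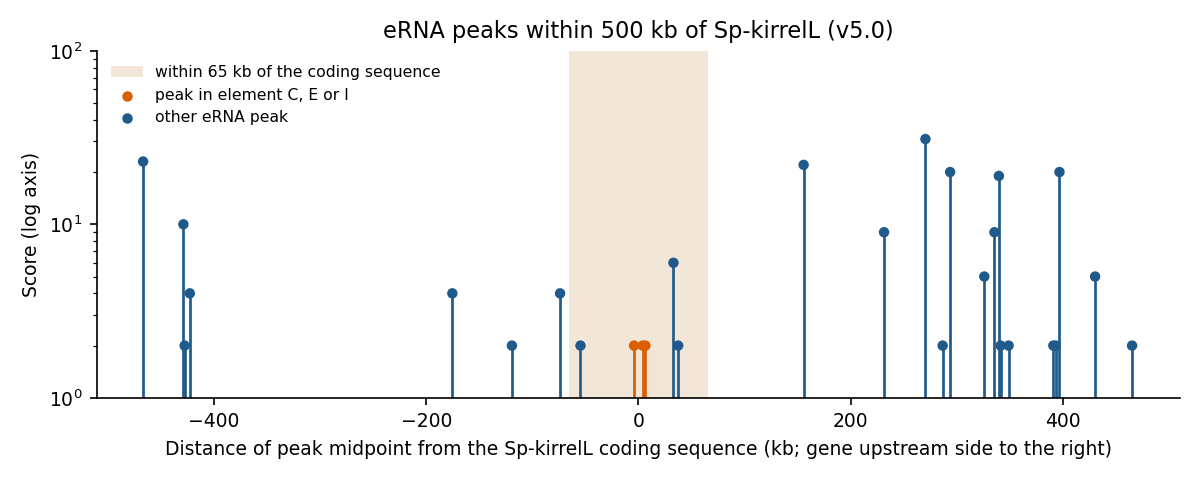
Scores (log axis) of the eRNA peaks within 500 kb of *Sp-kirrelL*, against the distance of each midpoint from the coding sequence, with the upstream side of the gene to the right. The 3 peaks that overlap an element (orange; C, E and I) had a score of 2, the shaded 65-kb flanks held 6 peaks with a highest score of 6, and the first peaks to reach 20 lay at 465.7 kb downstream and 154.6 kb upstream.

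Along the whole scaffold, most peaks had low scores and a few had very high ones. The median was 3 with quartiles of 2 and 7, as on the other scaffolds. The lowest score was held by 395 members (46.0%; Wilson interval 42.7 to 49.4%), against 7318 of the 16440 peaks elsewhere (44.5%; 43.8 to 45.3%). The intervals overlap. The share was the 3rd highest of the chromosome-scale scaffolds, the others of which ranged from 42.23 to 47.14%. A score of at least 20 was reached by 89 members (10.4%) and by 10.3% of the peaks elsewhere. A score of at least 100 was reached by 23 (2.68%) and 2.93%, respectively.

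At the top of the range the scaffold was lower, by values that rest on few peaks and were not tested. Its highest score, 7405, was the lowest maximum of the 21 chromosome-scale scaffolds, whose other maxima ran from 7451 to 58394, and 59 peaks elsewhere had a higher score. A score of at least 1000 was held by 9 members (1.05%), against 271 peaks elsewhere (1.65%). The mean score was 49.1 on the scaffold and 97.7 elsewhere. The 9 peaks took 77.6% of the summed score of the scaffold, and the top 5 alone 59.9%. Elsewhere, the 164 highest peaks, the same proportion of the list, took 76.8%.

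Window by window, the score varied less at its centre than at its top. The median score of the 35 windows ran from 2 to 6, and the share at the lowest score from 25 to 66.67%. The window next to that of *Sp-kirrelL* on the downstream side, 1–1000000, held 30 peaks, of which 20 had the lowest score, the highest share on the scaffold. The next window upstream, 2000001–3000000, had a median score of 5, the 2nd highest. It held the peak at 2735989–2736161, with a score of 427, the nearest to *Sp-kirrelL* above 206 (775.8 kb). The highest score of a window ran from 11 to 7405. The window of *Sp-kirrelL*, with 206, was 14th by this measure. In the densest window, 18 of the 45 peaks had the lowest score and 1 had 2564, whereas the window with 43 peaks had no score above 50.

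The highest-scoring member, at 22057032–22057548, had a score of 7405 and lay 20.1 Mb from *Sp-kirrelL*. The next, at 15694571–15694930, had a score of 7323 and lay 13.7 Mb away, and it was 360 bp wide in v5.0 against 982 bp in v3.1. The others in the top 5 were 34184723–34185050 with 4421, 30045161–30045744 with 3076 and 5021094–5021364 with 2995. All 5 were on the upstream side of the gene, which makes up most of the scaffold. The coding sequence ends at 1960193 and the last kept peak at 35089776. The 9 peaks over 1000 were spread over 8 windows, with counts from 8 to 45 peaks, so that high scores were found in dense and in sparse windows. The nearest of them to *Sp-kirrelL* was 3.06 Mb away.

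**Figure D3:**
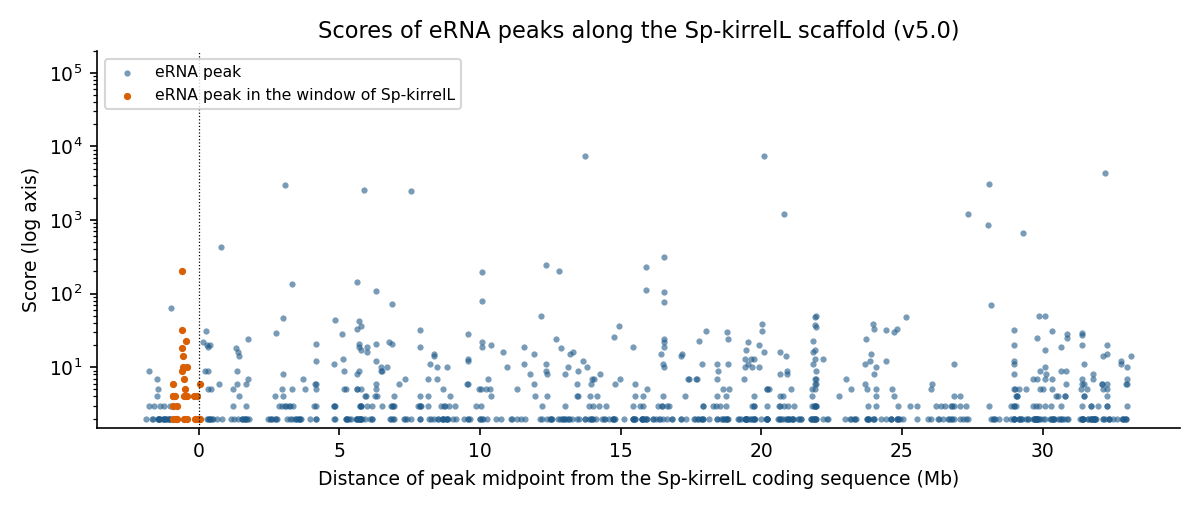
Score (log axis) of each of the 858 eRNA peaks of the scaffold, against its distance from the *Sp-kirrelL* coding sequence; orange points lie in the same 1 Mb window as the gene. Most points lie at scores of 2 to 7, the 9 peaks over 1000 are scattered over 8 windows, and none of these 9 lies within 3 Mb of the gene.

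Score and width went together across the members. The 395 peaks of score 2 were at the median 270 bp wide (quartiles 180.5 and 357.5 bp), and the 291 of score 3 to 9 were 322 bp wide. The 149 of score 10 to 99 had a median of 439 bp (quartiles 354 and 547 bp). The 23 peaks of 100 and over were not wider still, with a median of 382 bp. On the other scaffolds the corresponding medians were 254, 303, 401 and 486 bp. Spearman's rho of width and score was 0.43 over the 858 members, which share libraries and are not independent. The peaks of elements E and I, 331 bp each, were wider than the median for their score and that of element C, 217 bp, was narrower.

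The scaffold had the highest median peak width of the chromosome-scale scaffolds. The median width was 326.5 bp (quartiles 208.2 and 398 bp), against medians of 272.5 to 314 bp on the other 20. It was also first by v3.1 widths, with a median of 329 bp for members with a single v3.1 interval against 291 to 323 bp. Among peaks of equal width in v3.1 and v5.0, however, the median was 299.5 bp. With scaffolds of at least 50 such peaks compared, this was the 5th highest. For all peaks the median was the highest of the chromosome-scale scaffolds, and the 2nd highest of scaffolds with at least 50 peaks. The 2nd rank counted a scaffold of 59 peaks that the comparison of equal widths left out. No test of the difference was available.

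The lift-over changed the widths of many members, at shares close to those on the other scaffolds. Of 846 members with a single v3.1 interval, 514 (60.8%) had the same width in v5.0, 212 (25.1%) were narrower and 120 (14.2%) wider. Elsewhere the shares were 62.7%, 23.3% and 14.0%, respectively. The width was within 5 bp for 654 (77.3%), against 79.2% elsewhere. The widest member, at 23250148–23251917, measured 319 bp before the lift-over and 1770 bp after it. A width of 1 bp was left for 6 members, among them the peak at 5295566, which measured 672 bp in v3.1. Near *Sp-kirrelL*, the 3 peaks inside elements kept their widths. The peak at 1904652–1904838 shrank from 318 to 187 bp, and that at 1885485–1885521, 73.04 kb downstream, from 320 to 37 bp.

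Gaps between neighbouring peaks, from the end of one to the start of the next, had a median of 15813 bp over 857 gaps. The quartiles were 3221 and 49875 bp. On the other scaffolds the median was 19863 bp, with quartiles of 4374 and 62290.8 bp. The median gap was the 3rd shortest of the chromosome-scale scaffolds, whose others ranged from 12174 to 40227 bp. Gaps under 5 kb made up 31.7% (272) on the scaffold and 26.7% elsewhere. Gaps over 100 kb made up 11.2% (96) and 15.7%, and they held 51.9% and 61.9% of all gap length.

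Peaks under 5 kb apart formed 154 groups with 426 members (49.7%), against 42.0% of peaks elsewhere. The largest group had 10 peaks in 13501 bp, at 30948812–30962312, with a median score of 6.5 and a highest score of 32. A group of 8 lay at 23867275–23881377 and one of 7 at 23907529–23919620, both in the window with 43 peaks and both derived from v3.1 Scaffold945. A group of 7 at 18501105–18517661 had the highest scores of these, with a median of 24 and a maximum of 319, and none at the lowest score. On the other scaffolds the largest group had 18 peaks. Elements E and C formed a pair by this measure, with 2286 bp between their peaks.

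The longest gaps were 710676 bp, between the peaks at 29305030–29305368 (score 2) and 30016045–30016338 (score 847), and 644263 bp, between 3764481–3764750 and 4409014–4409222 (score 2 each). The third, of 621340 bp, lay between 6142566–6142764 (score 2) and 6764105–6764484 (score 11). The longest gap was the 12th longest of the maxima on the 21 chromosome-scale scaffolds, which ranged elsewhere from 450950 to 1118491 bp.

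The gaps at *Sp-kirrelL* ranged from short to long for the scaffold. From the downstream to the upstream side, those touching the 65-kb flanks measured 19130, 50242, 7765, 2286, 26103, 4070 and 117794 bp. The shortest of these, between elements E and C, was longer than 20.4% of the scaffold's gaps. The coding sequence itself lay in the gap of 7765 bp between the peaks of elements I and E, which was longer than 39.1%. The gap of 50242 bp was longer than 75.4%. The gap of 117794 bp, which crosses the outer end of the upstream flank, ranked 77th and was longer than 91.0%. Longer ones lay in the same window, on the downstream side. The gap of 247090 bp, between 1536437–1536829 and 1783920–1784084, ranked 18th. That of 161103 bp, between 1196247–1196580 and 1357684–1358281, ranked 42nd.

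**Figure D4:**
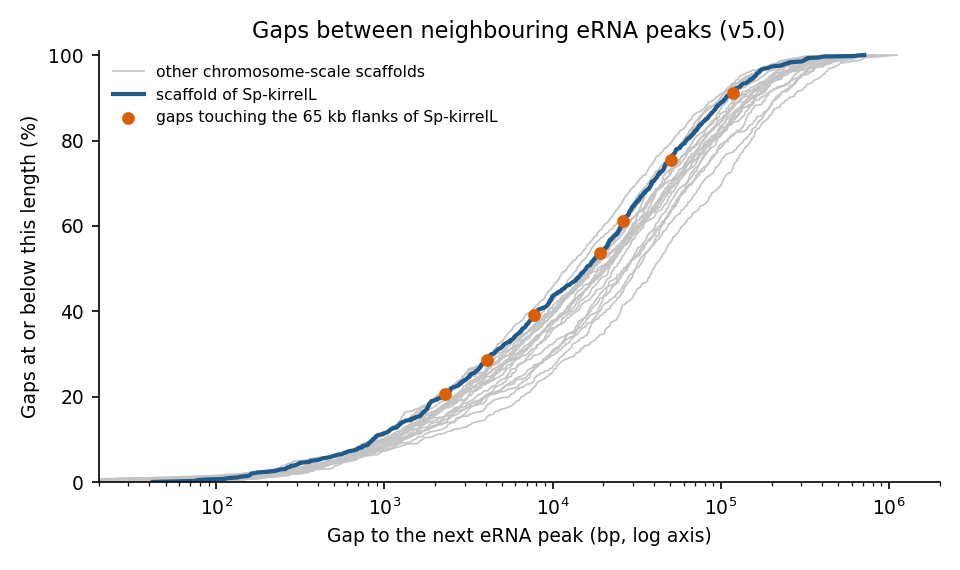
Cumulative share of gaps between neighbouring eRNA peaks, against gap length in bp (log axis), for the *Sp-kirrelL* scaffold (blue) and the other 20 scaffolds with at least 400 peaks (grey). The 7 gaps that touch the 65-kb flanks of *Sp-kirrelL* (orange) run from 2286 to 117794 bp and spread along the curve of the scaffold, whose median is 15813 bp.

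The members were lifted from 203 v3.1 scaffolds, of which 120 gave 1 member each. Along the scaffold they formed 275 stretches from a single v3.1 scaffold, of which 151 held 1 member and 17 held 10 or more. The largest contributor, Scaffold153, gave 38 members. Where neighbours came from the same v3.1 scaffold, the median gap was 7771 bp (583 gaps, quartiles 1978 and 28397 bp). At a change of v3.1 scaffold it was 45866.5 bp (274 gaps, quartiles 15399.8 and 102862.5 bp). Such changes made up 32.0% of all gaps but 72.9% (70) of those over 100 kb. Elsewhere the medians were 8227 and 57263 bp, changes made up 40.1% of gaps, and they held 81.6% of gaps over 100 kb. Single placements that the lift-over put astray were not separated from stretches of the assembly, and 7 members' v3.1 intervals were also placed elsewhere. In the whole v5.0 list, 153 v3.1 intervals were placed more than 1 time.

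All of the 3 longest gaps lay at such a change. So did the gaps of 117794, 161103 and 247090 bp described above near *Sp-kirrelL*. Within stretches from 1 v3.1 scaffold, spacing was mostly kept. For 395 of 580 neighbour pairs (68.1%) the v5.0 gap was within 10% of the v3.1 gap, and the median ratio was 1. Order was kept for 281 pairs and reversed for 299. Direction was counted per pair and not per v3.1 scaffold, so these counts do not measure rearrangement.

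The *Sp-kirrelL* locus was one such stretch, in reverse order. Its 6 peaks within 65 kb were a stretch of 92.31 kb from v3.1 Scaffold8, at 1904652–1996959, with no peak from another v3.1 scaffold between them. The gaps between the peaks of elements I, E and C measured 7765 and 2286 bp, against 7767 and 2286 bp in v3.1. The gap from element I to the downstream peak was 50.2 kb, against 60.6 kb in v3.1, a ratio of 0.829. From element C to the peak of score 6 it was 26.1 against 27.5 kb. A further Scaffold8 peak, at 1840046–1840152, was separated from this stretch by 1885485–1885521, which comes from Scaffold2623.

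Beyond the Scaffold8 peaks around the gene, the neighbouring peaks differed between v3.1 and v5.0. Of the 27 peaks on v3.1 Scaffold8, 7 were lifted to the *Sp-kirrelL* scaffold, 18 to 4 other v5.0 scaffolds, and 2 had no match in the v5.0 list. The 7 are those at 530688–708061 in v3.1, around the gene. On both sides, the peaks next to them in v3.1, at 297193–297384 and 1310484–1310605, went to other scaffolds. In v5.0 the neighbours were instead peaks of Scaffold160, 174.5 kb downstream, and Scaffold1461, 154.6 kb upstream.

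**Figure D5:**
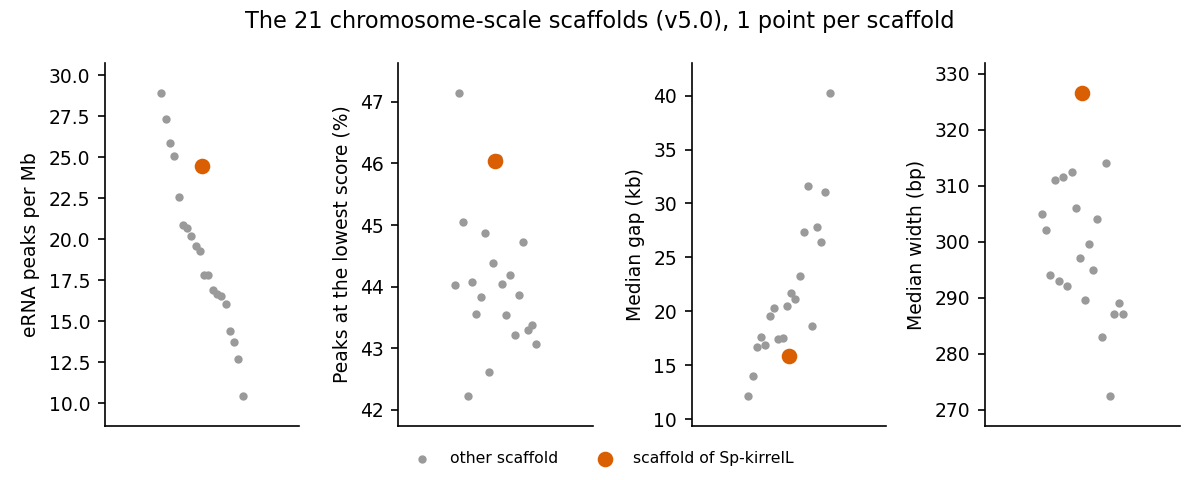
Peak density, share of peaks at the lowest score, median gap and median width for the 21 scaffolds with at least 400 peaks, 1 point per scaffold, with axes that do not start at 0 and sideways positions without meaning. The *Sp-kirrelL* scaffold (orange) had 24.45 peaks per Mb, 46.04% at the lowest score, a median gap of 15.8 kb and the highest median width, 326.5 bp.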

How the data were processed

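CAGE-seq libraries from 9 stages were mapped by the authors to assembly v3.1 with BWA, and with HISAT2 where the mapping quality was under 20. Start sites were clustered with DPI, clusters with at least 2 tags were kept, and bidirectional enhancers were identified with the FANTOM5 program. Versions are not given in the sources used here. The deposited values are the start and end of each peak, lifted to v5.0, and the authors' score, which is undefined. All libraries are pooled.

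Starts were converted to count from 1. Peaks over 2000 bp wide were left out, and the others placed in windows by their midpoint. The end of the last peak stood for the end of a scaffold, and only full windows were ranked. Element coordinates came from the study. Peaks described singly were those in elements A to I or within 65 kb of the coding sequence, the 5 highest-scoring on the scaffold and in its window, the widest and narrowest, and those at the 3 largest gaps. Members, lists and measures were chosen with earlier results of these data known. Window and gap measures were tested on simulated data. Python 3.11.15, numpy 2.4.6, pandas 2.3.3, scipy 1.17.1 and matplotlib 3.10.9 were used. Gene annotation and sequence at the peaks were not used here, because the gene table at hand gives no scaffold.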

Additional observations from a re-analysis of the deposited data

How the results depend on the processing

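Of 77 values recomputed under other settings, 57 stayed within 1.5 times the reported value (shares within its 95% Wilson interval, ranks equal) and 20 moved. Some of the 57 could not change, so this count does not measure robustness. The number of members and the peaks per Mb do not depend on how windows are laid. Limits on the number of peaks per scaffold leave the values of this scaffold itself unchanged. The 32 peaks of the *Sp-kirrelL* window became 12 in windows of 500 kb, 62 in windows of 2 Mb, 21 with a score of at least 3 and 7 with a score of at least 10, by construction. The window had more peaks than 74.29% of the scaffold's windows, and than 44.29% with windows of 500 kb. Over all scaffolds the share of 88.14% became 82.17% with tiles shifted by 500 kb, 82.79% with a window centred on the gene, 68.45% with windows of 500 kb, 92.84% with a score of at least 3 and 84.77% with a score of at least 10. The median gap of 15813 bp became 25814.5 bp with a score of at least 3, since fewer peaks were left. Ranks among scaffolds with at least 50 peaks moved most when those with at least 20 peaks were compared, from 4 to 20 for the lowest-score share and from 20 to 34, counted from the longest, for the median gap. The limit to scaffolds with at least 400 peaks, removal of joint members and v3.1 widths were chosen after seeing the data. The limit of 400 peaks, used for the ranks in the text, changed the rank of the scaffold from 6 to 5 for density, from 4 to 3 for the lowest-score share and from 2 to 1 for the median width, against scaffolds with at least 50 peaks. Without joint members the rank of the lowest-score share among the latter was 3. Not run were 3 alternatives, on scaffold ends, sequence windows and gene flanks, for want of lengths, sequence and gene positions. No paired analysis was possible because the list pools the libraries, and for the same reason no library could be left out. The depth behind a peak is unknown.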

Other observations

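Of the 858 members, 12 (1.4%) joined a pair of v3.1 intervals, against 158 (0.961%) of the peaks elsewhere, and 10 of the 12 pairs came from different v3.1 scaffolds. The score of each was the highest of its pair, not the sum. The highest-scoring was the peak at 14319143–14320858, with a score of 243 from intervals scored 243 and 238. In other pairs the scores differed, as at 27107354–27107726, with 48 and 3. Joint members had scores of 2 to 243 with a median of 11, and 1 of the 12 had the lowest score. For 7 members, the v3.1 interval was also placed at another position of v5.0. In the whole v5.0 list, 153 v3.1 intervals were placed more than 1 time, at 306 positions in all.

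The 3 intervals over 2000 bp on the scaffold measured 5956 bp (score 3), 4465 bp (score 11) and 2188 bp (score 11). In v3.1 the first 2 were 216 and 356 bp wide, and the last joined intervals of 338 and 430 bp.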
